A study of Homo sapiens with 12 samples.

Results

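AP-1 is a family of dimeric transcription factors built from FOS proteins (FOS, FOSB, FOSL1, FOSL2), JUN proteins (JUN, JUNB, JUND) and related leucine zipper proteins such as ATF3. FOS proteins bind DNA only as a partner of another zipper protein, usually a JUN protein, whereas JUN proteins also pair with each other. Many of these genes are immediate-early genes, which means that growth factor or stress signals switch them on without new protein synthesis; EGFR signals reach them through the RAS-ERK pathway and the ternary complex factors ELK1, ELK3 and ELK4. The 10 genes described here are the 7 FOS and JUN genes with ATF3, the zinc finger factor EGR1 and IER3, an immediate-early gene that encodes a regulator of cell survival and no DNA-binding factor. They were picked by symbol from a table of 62754 Ensembl gene identifiers, and all 10 were found and passed the filter on low counts that left 17115 genes for testing.

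The cells were PC9, a human lung adenocarcinoma line that carries an activating EGFR mutation, here descended from an earlier subclone. RNA was sequenced in 4 groups of 3 cultures, which had been split off a common flask of their line and then grown apart. The first was TDP1 wild-type (TDP1 WT) without drug. TDP1 WT kept in 1 µM erlotinib formed the next pair, named DTC (drug-tolerant) when taken at 7 days and DTEC (drug-tolerant and expanded) when taken at 28 days. The last was 1 TDP1 knockout line (TDP1 KO2, written KO) without drug. Erlotinib inhibits the EGFR kinase; TDP1 removes trapped topoisomerase I from DNA ends. No KO library was treated. The p-values measure the spread between parallel cultures of the same line, and the KO test sets 1 KO line against the WT line.

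Libraries held 25572691 to 38373679 estimated counts. TDP1 was at 25.1 to 28.1 CPM (counts scaled to the TMM-adjusted library total) in untreated WT and at 10.1 to 11.3 CPM in KO, a log2 fold change of -1.29 (adjusted p = 1.3e-05). In the treated WT groups TDP1 was at 12.7 to 15.7 CPM in DTC and at 25.4 to 28.4 CPM in DTEC. The 6 epithelial markers summed to 4465 to 5023 CPM in DTC and to 7481 to 10260 CPM in the other groups, while 1 of them, the lung marker NKX2-1 reached at most 0.442 CPM in any library. Most of the sum was KRT8 (4015 CPM in untreated WT, 1869 CPM in DTC) and KRT18 (2930 and 1184 CPM). EPCAM and KRT19 also had lower means in DTC, whereas CDH1 was at 285 and 298 CPM. The 5 leukocyte markers summed to 25.9 to 54.8 CPM over all groups, nearly all of it CD68, with PTPRC and CD3E at no more than 0.147 CPM in any library. The 5 fibroblast markers summed to 54.9 to 57.6 CPM in DTC and 7.99 to 15.1 CPM elsewhere, nearly all of it COL1A1, with COL1A2 at no more than 0.0351 CPM in any library. The 3 endothelial markers summed to 41.9 to 49.5 CPM in DTC and 122 to 142 CPM in DTEC, against 58.5 to 77.2 CPM in untreated WT and KO. They did not move together. PECAM1 was at 32.0 CPM in untreated WT, 8.77 CPM in DTC and 92.1 CPM in DTEC. CDH5 was at 27.7, 35.0 and 36.7 CPM, and VWF at 0.122, 1.57 and 0.405 CPM. Reads of mitochondrial genes made up 4.43 to 5.41% of DTC libraries against 1.82 to 2.78% elsewhere. The part of these levels in the results below was not tested. DTC replicate 1 stood apart from the other DTC libraries. In it the 10% of genes with the highest GC content had a median log2 deviation of -0.32 from the mean of its own group. They were also low against their group mean in replicate 1 of untreated WT (-0.23) and of DTEC (-0.19). In KO the values were smaller, with replicate 1 again the lowest (-0.067, 0.047 and 0.024 for replicates 1 to 3). In bulk RNA, fewer cells that express a gene and less RNA per cell cannot be told apart.

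Promoter sequence is shown for EGR1, which was higher in DTEC than in DTC, and for JUND, which was lower. The JUND call was lost when some single libraries were left out, as given below. Each promoter holds a full element for a signal-regulated factor, whose part in these changes was not tested. They are the only members whose windows held the elements marked below. FOS and ATF3, whose windows held none, changed more between DTC and DTEC (log2 2.76 and -2.53). The windows run from 250 bases before to 50 after the RefSeq start of transcription (GRCh38.p14), and 8 of the 10 members had one. Capitals mark a CArG box, the element bound by serum response factor, in EGR1 (chr5:138465349-138465428, plus strand, positions -130 to -51) and the CRE-type element TGACGTCA in JUND (chr19:18281773-18281852, minus strand, positions -230 to -151).
EGR1: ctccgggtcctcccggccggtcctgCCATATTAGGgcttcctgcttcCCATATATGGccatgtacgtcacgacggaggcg
JUND: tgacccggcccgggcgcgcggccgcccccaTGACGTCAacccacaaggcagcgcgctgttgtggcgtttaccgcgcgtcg
The EGR1 stretch holds a pair of CArG boxes that begin at -105 and -83. A CArG box, searched on both strands, was in 1.29% of 35116 windows of the same length, TGACGTCA in 1.85% and the AP-1 element TGANTCA in 7.71%. FOSL2 held 1 TGANTCA match, which begins at position 5 after the start. None of these letters was found in the windows of FOS, FOSB, JUN, JUNB or ATF3, which says nothing of elements outside them.

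**Figure D1:**
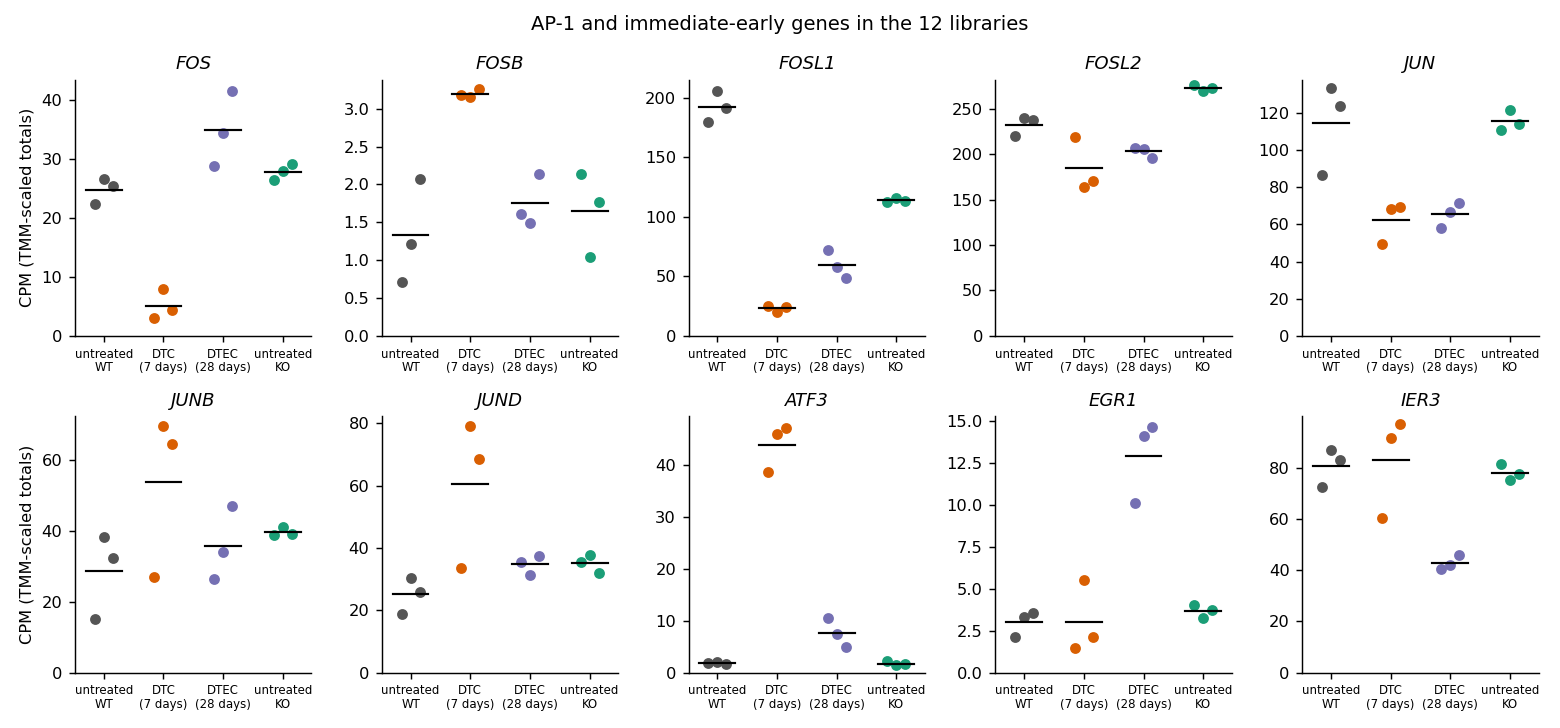
Level of each gene in CPM with TMM-scaled totals (vertical axis, linear from 0, own scale per gene) in the 3 libraries of each group (points), with the group mean (line). FOSL1 and FOS are lowest in DTC, ATF3 is highest in DTC, and EGR1 is highest in DTEC.

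In untreated WT cells FOSL1 was the most abundant of the 10 transcripts once levels were divided by exon length, at 102 ± 7.02 CPM per kb (SD, n = 3). IER3 followed at 59.5 ± 5.50 CPM per kb, then FOSL2 at 32.5 ± 1.53 and JUN at 32.4 ± 7.01, whose ranges overlapped. JUNB (15.7 ± 6.57 CPM per kb) and JUND (13.5 ± 3.13) also overlapped. FOS lay at 7.65 ± 0.652 CPM per kb. EGR1 (0.959 ± 0.241), ATF3 (0.451 ± 0.0506) and FOSB (0.241 ± 0.124 CPM per kb) closed the order. After 7 days of erlotinib the order began with IER3 (61.2 ± 14.6 CPM per kb), JUND (32.4 ± 12.8) and JUNB (29.5 ± 12.8), the last pair overlapping. FOSL1 had moved from the first to the sixth place at 12.3 ± 1.43 CPM per kb, a range that overlapped that of ATF3 (10.8 ± 1.13). At 28 days IER3 (31.6 ± 2.14 CPM per kb), FOSL1 (31.5 ± 6.26) and FOSL2 (28.4 ± 0.852) led, with each range overlapping the next except that of FOSL2 with JUNB. In KO cells FOSL1 (60.3 ± 1.06 CPM per kb) and IER3 (57.5 ± 2.34) overlapped at the top.

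The family moved in both directions at 7 days of erlotinib. Of the 10 genes 4 were called higher in DTC than in untreated WT (FOSB, JUNB, JUND, ATF3), beside 34.0% of all genes tested, and 4 were called lower (FOS, FOSL1, FOSL2, JUN), beside 33.3% of all genes; EGR1 and IER3 did not pass. These shares of called members lie near the background, so the counts say nothing particular of the set. Calls rest on edgeR's quasi-likelihood test with a threshold of 0.05 on the adjusted p. With total counts alone in place of TMM the median gene moved up by 0.35 on the log2 scale, and higher genes made up 68.4% of the DTC calls instead of 50.5%. Changes of that size in DTC, such as that of FOSL2, depend on the scaling.

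FOSL1 encodes FRA-1, a FOS protein without a transactivation domain of the FOS type that is a common ERK-dependent AP-1 subunit in carcinoma cells. Its levels were 179, 206 and 191 CPM in untreated WT, 25.4, 20.2 and 24.0 CPM in DTC, 71.8, 57.9 and 48.3 CPM in DTEC, and 112, 116 and 113 CPM in KO. No library of one group reached into the range of another, and the groups ran from untreated WT down through KO and DTEC to DTC. FOSL1 fell 8.29-fold in DTC (log2 -3.05, SE 0.142, adjusted p = 4.6e-10) and 3.24-fold in DTEC (log2 -1.70, SE 0.134, adjusted p = 2.18e-07). Between 7 and 28 days it rose 2.56-fold (log2 1.36, SE 0.135, adjusted p = 1.53e-06), which left it below the untreated level.

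FOS, the prototype immediate-early gene, stood at 22.4, 26.5 and 25.4 CPM in untreated WT, 3.04, 7.89 and 4.40 CPM in DTC, 28.7, 34.3 and 41.5 CPM in DTEC, and 26.4, 27.9 and 29.1 CPM in KO. The DTC libraries all lay under the other 9, and the DTEC libraries all lay over untreated WT. FOS fell 4.82-fold in DTC (log2 -2.27, SE 0.253, adjusted p = 3.17e-06) and was 6.79-fold higher in DTEC than in DTC (log2 2.76, SE 0.255, adjusted p = 1.2e-06). Against untreated WT the DTEC value of log2 0.49 (95% interval -0.01 to 0.99) did not pass the test, with an adjusted p of 0.0906. It passed in 4 of 15 alternatives, among them a fit of the compared libraries alone (adjusted p = 0.0106) and the fit with a replicate block (0.049).

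FOSB and FOSL2 moved less. FOSB, a stimulus-induced FOS protein, was at 0.717, 1.21 and 2.08 CPM in untreated WT (24 to 72 counts), 3.18, 3.15 and 3.25 CPM in DTC, 1.61, 1.49 and 2.14 CPM in DTEC, and 2.14, 1.04 and 1.77 CPM in KO. All DTC libraries were above all others, while the other 3 groups overlapped. FOSB rose 2.38-fold in DTC (log2 1.25, SE 0.337, adjusted p = 0.00445) and was lower in DTEC than in DTC (log2 -0.86, adjusted p = 0.0393). The latter call was lost without DTC replicate 2 (adjusted p = 0.0572), DTC replicate 3 (0.0737), DTEC replicate 1 (0.0997) or DTEC replicate 2 (0.114). FOSB overlaps ERCC1 on the opposite strand, and the strand setting of the counting is not given in the sources used here; ERCC1 was at 66.1 CPM in untreated WT and 67.0 CPM in DTC, an adjusted p of 0.874.

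FOSL2, which encodes FRA-2, was at 220, 240 and 238 CPM in untreated WT, 219, 164 and 171 CPM in DTC, 207, 206 and 196 CPM in DTEC, and 276, 269 and 272 CPM in KO. All DTC libraries lay below untreated WT, replicate 1 by a narrow margin, and all KO libraries lay above it. The fall of 0.33 on the log2 scale (SE 0.107, adjusted p = 0.0133) turned to 0.02 with total counts alone. It was not called with the compared libraries alone (adjusted p = 0.066) or without untreated WT replicate 2 (0.0734), untreated WT replicate 3 (0.0726), DTC replicate 2 (log2 -0.19, adjusted p = 0.139) or DTC replicate 3 (0.13). FOSL2 in DTEC differed from untreated WT by log2 -0.19 (adjusted p = 0.141) and from DTC by 0.14 (adjusted p = 0.294). Without DTC replicate 1 the latter was called at log2 0.26 (adjusted p = 0.00612). FOSL2 overlaps FLJ31356 on the opposite strand and the intronic gene AC104695.3 on the same strand, whose levels are not reported here.

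JUN, the main partner of FOS proteins, was at 86.6, 134 and 124 CPM in untreated WT, 49.4, 68.3 and 69.6 CPM in DTC, 57.9, 66.5 and 71.7 CPM in DTEC, and 111, 122 and 114 CPM in KO. All 6 treated libraries lay below all 6 untreated ones. JUN fell 1.84-fold in DTC (log2 -0.88, SE 0.162, adjusted p = 0.000255), or by 0.52 on the log2 scale with total counts alone, and 1.75-fold in DTEC (log2 -0.81, SE 0.162, adjusted p = 0.000777). Between 7 and 28 days JUN differed by log2 0.07 (95% interval -0.28 to 0.41, adjusted p = 0.749), so the return seen for FOS was not detected for JUN.

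JUND and JUNB, JUN proteins that are weaker activators than JUN in many settings, had higher means in DTC. JUND was at 18.9, 30.5 and 25.9 CPM in untreated WT, 33.7, 79.2 and 68.5 CPM in DTC, 35.5, 31.4 and 37.4 CPM in DTEC, and 35.7, 37.8 and 32.1 CPM in KO. DTC replicate 1 lay within the DTEC range and far below the other DTC libraries. JUND rose 2.41-fold in DTC (log2 1.27, SE 0.255, adjusted p = 0.000683) and was lower in DTEC than in DTC (log2 -0.80, adjusted p = 0.0165). The latter was not called without DTC replicate 2 (adjusted p = 0.0715), DTC replicate 3 (0.0504) or DTEC replicate 2 (0.0524). For DTEC against untreated WT the value was log2 0.47 (adjusted p = 0.139). It was called in 4 of 15 alternatives, which were the compared libraries alone (adjusted p = 0.0288), no filter (0.00266) and both fits with a GC correction.

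JUNB was at 15.1, 38.2 and 32.2 CPM in untreated WT, 26.9, 69.6 and 64.5 CPM in DTC, 26.4, 34.1 and 46.9 CPM in DTEC, and 38.9, 41.1 and 39.1 CPM in KO. The untreated WT and DTC ranges overlapped, since DTC replicate 1 lay below untreated WT replicates 2 and 3. JUNB passed narrowly in DTC (log2 0.91, SE 0.375, adjusted p = 0.0487). It did not pass with DESeq2 (adjusted p = 0.0501), with the compared libraries alone (0.0653), or without untreated WT replicate 1 (0.113), untreated WT replicate 3 (0.0718), DTC replicate 2 (0.16) or DTC replicate 3 (0.132). Against DTC the DTEC value was log2 -0.58 (adjusted p = 0.206), which was called at -0.92 without DTC replicate 1 (adjusted p = 0.0477) and at -0.55 with no filter (0.000237), and was -0.33 with the GC correction. Against untreated WT the DTEC value was log2 0.33 (adjusted p = 0.485), called with no filter (0.0488) and in both fits with a GC correction. The gene overlaps HOOK2 on the opposite strand, at 72.8 CPM in untreated WT and 62.2 CPM in DTC.

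JUND and JUNB have the highest GC content of the 10 genes (69.7% and 64.9%, against 46.7% to 60.0% for the others). The libraries in which they were lowest within untreated WT and DTC were those in which high-GC genes as a whole were low. After a GC correction per library, added after seeing the data, JUND in DTEC was called higher than in untreated WT (log2 0.97, adjusted p = 1.93e-05) and so was JUNB (log2 0.61, adjusted p = 0.0374). The JUND difference between DTEC and DTC shrank to log2 -0.32 and was still called (adjusted p = 0.0433).

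ATF3, a stress-induced zipper protein that often represses its targets, showed the widest range of the 10. It was at 1.82, 2.02 and 1.62 CPM in untreated WT, 38.6, 45.9 and 47.0 CPM in DTC, 10.5, 7.37 and 4.92 CPM in DTEC, and 2.14, 1.42 and 1.60 CPM in KO. All DTC libraries were above all DTEC libraries, which were above all untreated ones. ATF3 rose 24.1-fold in DTC (log2 4.59, SE 0.248, adjusted p = 2.3e-09) and 4.17-fold in DTEC (log2 2.06, SE 0.243, adjusted p = 9.92e-06). From 7 to 28 days it fell 5.78-fold (log2 -2.53, SE 0.217, adjusted p = 4.38e-07).

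EGR1 and IER3 changed at 28 days. EGR1, a target of serum response factor and ternary complex factors, was at 2.15, 3.31 and 3.58 CPM in untreated WT, 1.45, 5.53 and 2.14 CPM in DTC, 10.1, 14.1 and 14.6 CPM in DTEC, and 4.04, 3.24 and 3.76 CPM in KO. Every DTEC library was above the other 9, and DTC replicate 2 was above the remaining untreated WT and DTC libraries. EGR1 rose 4.30-fold in DTEC against untreated WT (log2 2.10, SE 0.373, adjusted p = 0.000412) and 4.22-fold against DTC (log2 2.08, SE 0.372, adjusted p = 0.00041). In DTC the value was log2 0.02 (95% interval -0.80 to 0.85, adjusted p = 0.96). Without DTC replicate 2 it was called lower (log2 -0.67, adjusted p = 0.0377).

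IER3 was at 72.4, 86.8 and 82.9 CPM in untreated WT, 60.5, 91.5 and 97.1 CPM in DTC, 40.5, 41.9 and 46.1 CPM in DTEC, and 81.4, 75.2 and 77.5 CPM in KO. The DTEC libraries lay below all others, whereas DTC spanned the untreated range. IER3 fell 1.88-fold in DTEC against untreated WT (log2 -0.91, SE 0.147, adjusted p = 0.000136) and 1.94-fold against DTC (log2 -0.96, SE 0.147, adjusted p = 8.67e-05). In DTC its value was log2 0.04 (adjusted p = 0.811). It was called higher in DTC with total counts alone (log2 0.40, adjusted p = 0.0283) and without DTC replicate 1 (log2 0.26, adjusted p = 0.0202). IER3 overlaps the antisense gene IER3-AS1, which was at no more than 0.13 CPM as a group mean.

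At 28 days 2 of the 10 genes were called higher than in untreated WT (ATF3, EGR1), beside 26.0% of all genes, and 3 were called lower (FOSL1, JUN, IER3), beside 26.3%. Against DTC 3 were called higher (FOS, FOSL1, EGR1), beside 28.8% of all genes, and 4 lower (FOSB, JUND, ATF3, IER3), beside 26.6%. Both time points share the untreated libraries as reference, so the direct test of DTEC against DTC is the one that compares them. With total counts alone, higher genes made up 63.7% of the DTEC calls against untreated WT instead of 49.7%, as the median gene moved by 0.17. Against DTC they made up 37.4% instead of 51.9%, as it moved by -0.19. FOS in DTEC against untreated WT was called under that scaling (log2 0.66, adjusted p = 0.0291).

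**Figure D2:**
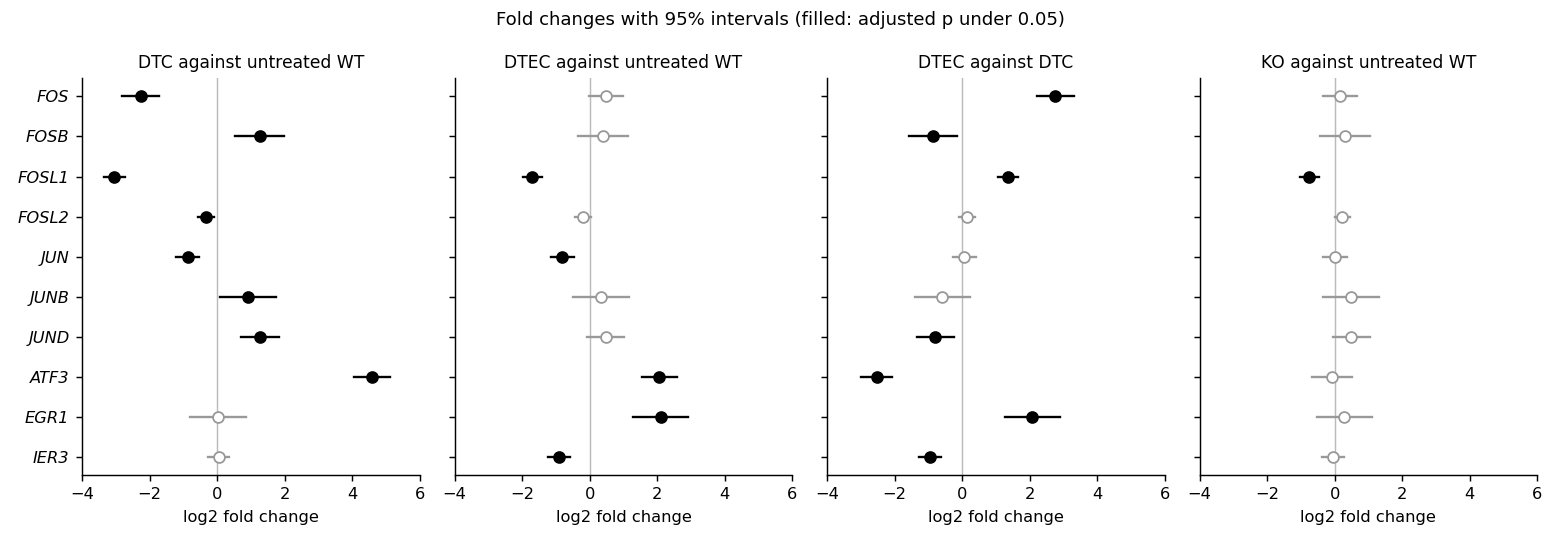
Log2 fold change of each gene (points) with its 95% interval (lines) in the 4 comparisons, from edgeR's quasi-likelihood fit of all 12 libraries; filled points passed an adjusted p of 0.05. FOS, FOSL1 and EGR1 lie right of 0 in DTEC against DTC, FOSB, JUND, ATF3 and IER3 left of it, and FOSL1 alone is filled in KO.

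Without drug, 1 of the 10 genes differed between the KO line and untreated WT by the test. FOSL1 was 1.69-fold lower in KO than in untreated WT (log2 -0.76, SE 0.131, adjusted p = 0.00452). That is 1 of 10 genes called lower, beside 1.55% of all genes. In edgeR's test 0 were called higher, beside 2.76% of all genes; 1, FOSL2, had an unadjusted p under 0.05 (0.0492), and DESeq2 called 0. The FOSL1 call held in all 15 alternatives, with adjusted p up to 0.0317. FOSL2 (log2 0.23, adjusted p = 0.298), JUNB (0.48, adjusted p = 0.58) and JUND (0.49, adjusted p = 0.367) did not pass. FOSL2 was called in the fit of these 6 libraries alone (log2 0.25, adjusted p = 0.00628), and JUNB and JUND without the filter on low counts (adjusted p = 0.01 and 0.00861). JUN differed by log2 0.01 with a 95% interval of -0.33 to 0.36, and IER3 by -0.05 with an interval of -0.36 to 0.26. With total counts alone, higher genes made up 78.8% of the KO calls instead of 64.1%, and with the compared libraries alone 52.6%. The number of genes called lower in KO, 265 here, was 1259 with the compared libraries alone and 83 to 117 when 1 library was left out, so the background share moves with it. The KO is 1 line, so TDP1 loss and other differences of that line cannot be told apart.

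Per exon length, FOSL1 had the largest mean share of the FOS and JUN transcripts in untreated WT, DTEC and KO, and JUND in DTC. In DTEC the range of FOSL1 overlapped that of FOSL2, and in DTC that of JUND overlapped those of JUNB and FOSL2. Without length scaling FOSL2 had the largest share in all 4 groups (37.7% in untreated WT, 47.6% in DTC), so this order rests on the scaling. The 7 FOS and JUN genes summed to 204 ± 25.6 CPM per kb in untreated WT and 181 ± 3.97 CPM per kb in KO (SD, n = 3). In the treated groups the sum was 120 ± 24.0 CPM per kb (DTC) and 128 ± 4.05 CPM per kb (DTEC). FOSL1 made up 54.1, 48.3 and 48.4% of that sum in the untreated WT libraries and 33.4, 33.2 and 33.6% in KO, against 14.6, 7.83 and 9.75% in DTC and 30.2, 24.6 and 19.4% in DTEC. Its share thus had the order of its level, with no overlap between groups. JUND had a share of 6.56 ± 0.736% in untreated WT and 26.3 ± 6.01% in DTC, and JUNB 7.49 ± 2.42% and 23.7 ± 6.68%. The mean share of JUN ranged from 14.5 ± 1.28% in DTEC to 18.1 ± 0.528% in KO. The 4 FOS genes together made up 70.2 ± 4.72% in untreated WT and 59.4 ± 1.01% in KO, and 35.2 ± 12.3% and 55.6 ± 5.22% in the treated groups at 7 and 28 days. DTC replicate 1, at 49.3%, was the DTC library nearest to the other groups. With 3 against 3 libraries the two-sided exact permutation test cannot go below p = 0.1, which FOSL1 reached in all 4 comparisons; none of the 28 share tests can pass. Transcript shares are no measure of protein or of dimers.

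**Figure D3:**
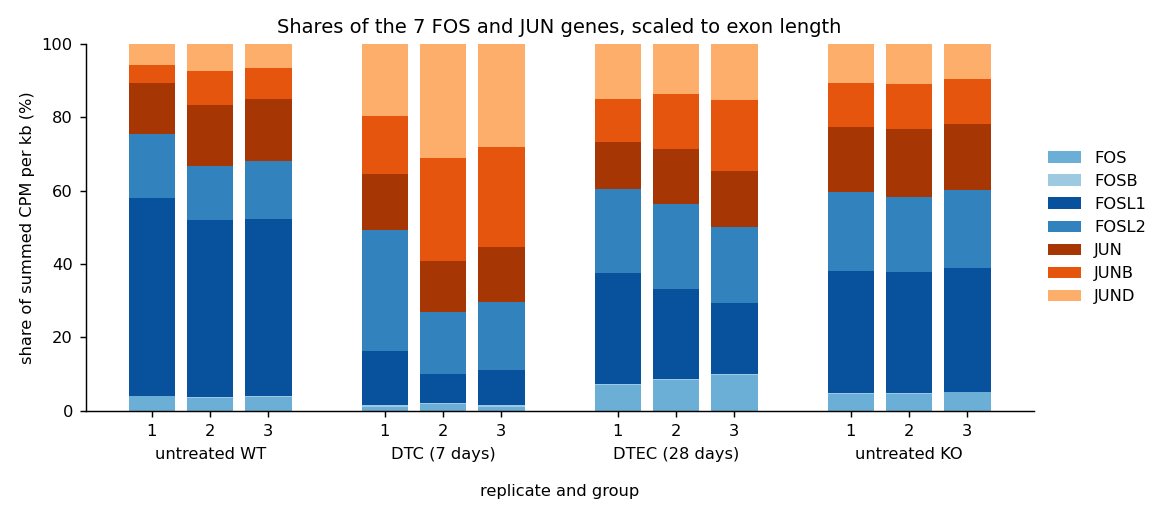
Stacked bars give each gene's share (%) of the summed CPM per kb of the 7 FOS and JUN genes in each library, from 0 to 100, with blue for FOS genes and brown to orange for JUN genes. FOSL1 (darkest blue) takes 48.3 to 54.1% in untreated WT and 7.83 to 14.6% in DTC.

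Genes around AP-1 were read from 4 lists, set beside the medians of all genes tested (log2 0.06 in DTC, 0.02 in DTEC, -0.01 in DTEC against DTC and -0.01 in KO) and the shares of all genes called. Among other zipper partners 9 of 12 genes were tested, and in DTC 5 rose and 1 fell, beside 34.0% of all genes higher and 33.3% lower. BATF2 had at most 14 counts in any library outside DTC. It passed the filter on low counts through DTC, which fixed its direction. JDP2, a zipper protein that pairs with JUN and represses AP-1 sites, rose from 11.5 to 51.6 CPM in DTC (log2 2.17, adjusted p = 8.13e-09) and was at 58.0 CPM in DTEC (log2 2.33, adjusted p = 1.99e-08). In KO it was the 1 partner of 9 called higher, at 16.9 CPM (log2 0.55, adjusted p = 0.0353), beside 2.76% of all genes. ATF2, a zipper partner of JUN activated by stress kinases, rose from 44.4 CPM to 64.0 in DTC and 95.8 in DTEC. MAFF fell to 16.7 CPM in DTC from 23.3 CPM and rose to 37.2 CPM in DTEC, and MAFK went the other way, from 49.6 to 84.2 and then 26.1 CPM; both are small MAF proteins, which lack a transactivation domain.

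Among kinases and factors upstream of the immediate-early genes 13 of 18 fell in DTC, beside 33.3% of all genes, and 1 rose, beside 34.0%, with a median log2 change of -0.65. ELK3, a ternary complex factor that acts with serum response factor, was at 119 CPM before treatment and 40.4 CPM in DTC (log2 -1.56, adjusted p = 3.14e-08) and 121 CPM in DTEC. ELK4 went from 85.0 to 40.3 and then 89.2 CPM, and RPS6KA1, which encodes an ERK-activated kinase, from 52.7 to 25.3 CPM in DTC. MRTFA, a coactivator of serum response factor, was the 1 that rose in DTC, from 45.9 to 73.5 CPM. In DTEC 2 of the 18 were higher than in untreated WT and 8 lower, beside 26.0% and 26.3% of all genes. Against DTC 10 were higher and 2 lower, beside 28.8% and 26.6%. In KO 1 fell, beside 1.55% of all genes, namely MAPK8, which encodes the kinase JNK1 (59.4 to 44.8 CPM, log2 -0.41, adjusted p = 0.0374).

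Of the other immediate-early genes 10 of 25 tested rose and 10 fell in DTC, with a median of 0.38. Both counts are near the shares over all genes of 34.0% higher and 33.3% lower. NR4A3, with at most 4 counts in any library outside DTC, passed the filter on low counts through DTC, which fixed its direction. CCN2, a matrix-associated protein and YAP target, rose from 0.177 CPM in untreated WT (0 to 11 counts) to 7.35 CPM (log2 5.30). DUSP1, a phosphatase of MAP kinases, rose from 7.89 to 49.4 CPM (2.65) and the kinase SGK1 from 18.8 to 88.4 CPM (2.24). PHLDA1 fell from 227 to 26.1 CPM (log2 -3.12), MYC from 305 to 77.5 CPM (-1.98) and TRIB1 from 182 to 76.1 CPM (-1.26). From 7 to 28 days PHLDA1 rose to 133 CPM, MYC to 223 CPM and TRIB1 to 142 CPM, while DUSP1 fell to 13.8 CPM, CCN2 to 3.62 CPM and CCN1 from 348 to 115 CPM. SGK1 was the 1 gene of the 25 called in KO, at 32.2 CPM (log2 0.78, adjusted p = 0.00168). Over all genes 2.76% were called higher in KO, so this count says nothing particular of the list.

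Of the textbook AP-1 targets 13 of 20 tested rose in DTC, beside 34.0% of all genes, and 5 fell, beside 33.3%, with a median log2 change of 1.49. MMP10 and MMP13 had at most 13 and 4 counts in any library outside DTC, so they passed the filter on low counts through DTC. That filter fixed their direction, here and in DTEC against DTC, so they add no support to these counts or medians. The cytokine gene IL6 rose from 0.312 to 14.8 CPM (log2 5.54, adjusted p = 2.48e-08) and the chemokine gene CXCL8 from 0.637 to 17.8 CPM (4.79, adjusted p = 2.81e-07). The matrix protease gene MMP9 rose from 0.283 to 3.33 CPM (3.53, adjusted p = 2.44e-06). These 3 genes had few counts in untreated WT, 4 to 21 for IL6, 15 to 28 for CXCL8 and 5 to 16 for MMP9. HMGA1, a chromatin protein, fell from 2855 to 527 CPM (log2 -2.44), VEGFA from 173 to 53.8 CPM (-1.68) and the cyclin gene CCND1 from 454 to 159 CPM (-1.51). At 28 days 4 of the 20 were above untreated WT and 11 below, beside 26.0% and 26.3% of all genes, with IL6 at 0.473 CPM. Against DTC 14 were lower and 4 higher, beside 26.6% and 28.8%, with a median of -2.13. In KO 3 of the 20 fell, beside 1.55% of all genes, among them the cytokine gene IL11 (2.75 to 1.48 CPM, adjusted p = 0.0241) and PLAU, which encodes the protease urokinase (79.4 to 49.2 CPM, adjusted p = 0.000861). Many of these genes answer to other factors too, and the part of AP-1 was not tested.

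**Figure D4:**
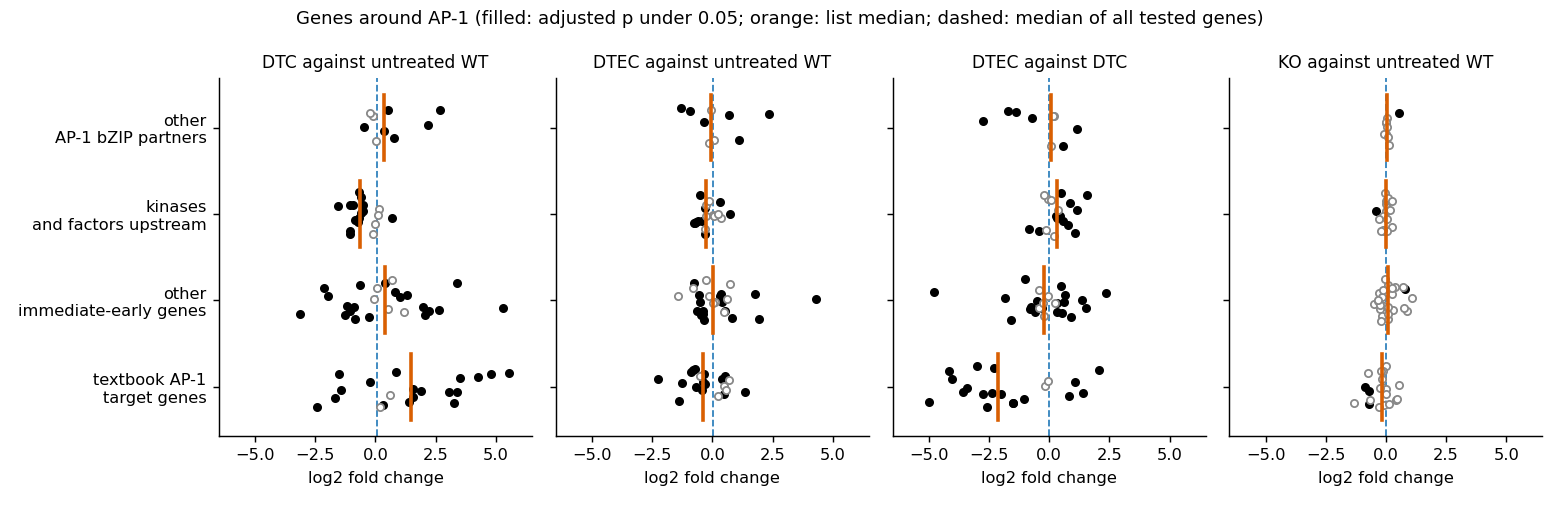
Log2 fold change (horizontal axis) of each tested gene in the 4 lists (rows; points spread vertically for sight) in each comparison, filled where the adjusted p was under 0.05; orange bars are list medians and the dashed line is the median of all tested genes. In DTC the upstream list has its median at -0.65 and the AP-1 targets at 1.49.

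Because immediate-early genes respond to handling, heat shock genes were read beside them. All 6 were called lower in DTC, beside 33.3% of all genes, and 5 of the 6 in DTEC, beside 26.3%. They summed to 5071 to 6642 CPM in DTC and 5408 to 6496 CPM in DTEC, against 13781 to 15642 CPM in untreated WT. Most of the sum was HSP90AA1 (8936 CPM in untreated WT, 3211 CPM in DTC) and HSPA8 (4260 and 1788 CPM). HSPA1A was at 503 CPM in untreated WT, 279 CPM in DTC and 356 CPM in DTEC, and HSPA1B at 189, 133 and 190 CPM. In KO they summed to 12294 to 12529 CPM. HSPA1A and HSPA1B are near-identical, and the authors' estimation split reads between them. The part of handling in the immediate-early values was not tested.

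The genes whose pattern over the 12 libraries was most alike were found from the root mean square difference of log2 CPM after removal of each gene's mean, among about 9721 genes at 10 CPM or more. Nearest to FOSL1 were LYAR (0.217), GPAT3 (0.261) and GEMIN5 (0.280). Nearest to JUN were CPSF1 (0.0875), WIZ (0.0879) and FAM83H (0.0904), which fell in both treated groups like JUN and were low in the same replicate 1 libraries. EGR1 had no close match: KRT15 differed by 0.448, ABCC3 by 0.470 and PIM1 by 0.480, all high in DTEC. ATF3 was nearest to MAP2 (0.336), GABARAPL1 (0.342) and SSC4D (0.346), and GABARAPL1 was at 16.7 CPM in untreated WT, 269 CPM in DTC and 69.2 CPM in DTEC. These lists describe likeness over shared libraries and carry no test.

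**Figure D5:**
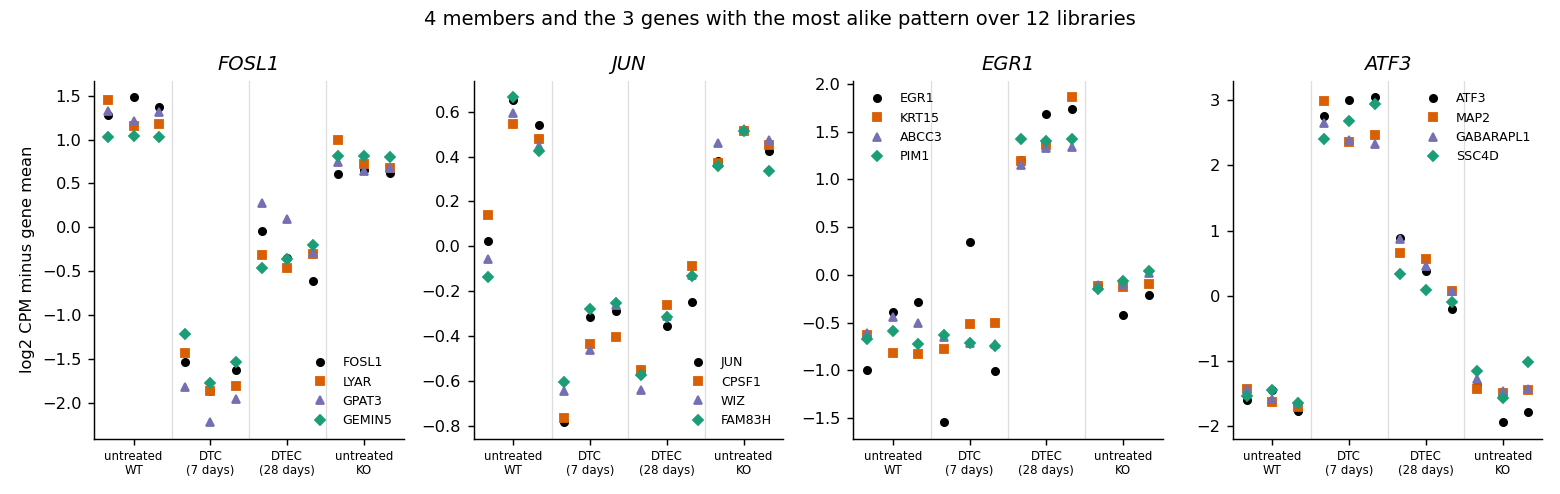
Log2 CPM minus the gene's mean over the 12 libraries (vertical axis) for FOSL1, JUN, EGR1 and ATF3 (black circles) and the 3 genes most alike to each (coloured markers), by group with replicates 1 to 3 from left to right. The DTC points of EGR1 spread around those of KRT15, ABCC3 and PIM1, whereas the LYAR points lie close to those of FOSL1.

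By the GENCODE 29 annotation of GRCh38, FOSL1 lies at chr11:65892049-65900573 (minus strand), FOS at chr14:75278774-75282230 (plus), JUN at chr1:58780788-58784327 (minus), ATF3 at chr1:212565334-212620777 (plus), EGR1 at chr5:138465490-138469315 (plus) and IER3 at chr6:30743199-30744554 (minus). JUNB (chr19:12791496-12793315, plus), JUND (chr19:18279760-18281622, minus) and FOSB (chr19:45467995-45475179, plus) share chromosome 19, and FOSL2 lies at chr2:28392448-28417312 (plus). Counts cover whole genes, so isoforms such as the short form of FOSB cannot be separated.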

How the data were processed

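Poly(A) RNA of 12 PC9 cultures was sequenced as a stranded mRNA library in 1 batch, per the labels. The authors deposited expected counts per Ensembl gene; RSEM 1.3.1, Bowtie2 2.5.2, DESeq2 1.40.2 and GRCh38 are named in the submitters' processing notes, while the annotation release, strand setting and filters are not given in the sources used here. All 120 values of the 10 genes were whole. Counts were rounded, filtered by group (filterByExpr), scaled by TMM and fitted with edgeR 4.0.16 (R 4.3.3) by the quasi-likelihood test, all 12 libraries together with 1 mean per group. P-values were adjusted by Benjamini and Hochberg over 17115 genes, with a threshold of 0.05 for calls. SE is the absolute log2 fold change over the root of F. CPM per kb divides by union exon length in GENCODE 29. Symbols were matched for 62700 of 62754 identifiers; 0 per-sample columns were left unused.

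The 10 members and all lists were chosen with earlier results of these data known. Named from each list were, per comparison, up to 3 called genes in each direction with the largest change and a mean of at least 1 CPM. The main fit took the replicate numbers as unpaired, since the cultures were grown apart. In KO 6 of 6 libraries correlated best with their own number. In DTC, DTEC and DTEC against DTC it was 4, 3 and 4 of 6. Alternatives were total counts alone, RLE factors, no filter, DESeq2 1.42.0, the compared libraries alone, a replicate block and leaving out each library; a GC-content correction, alone or with the block, and library totals over all genes were added after seeing the data. The script was tested on simulated counts with 200 changed genes and no GC or replicate effect, a simpler setting than these data. Promoters come from RefSeq (GRCh38.p14), where FOSL1 and IER3 had no window. Values of some list genes are not reported here.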

Additional observations from a re-analysis of the deposited data

Results flagged for a closer look

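For 7 of the 10 genes the change from untreated WT differed between 7 and 28 days of erlotinib, tested directly as DTEC against DTC with edgeR's quasi-likelihood test; both changes share the untreated libraries. Among all genes tested 28.8% were higher and 26.6% lower in the same test, so the count says nothing particular of the set. The difference in log2 change, 28 days minus 7 days, was 2.76 for FOS (adjusted p = 1.2e-06), 2.08 for EGR1 (0.00041) and 1.36 for FOSL1 (1.53e-06). It was -2.53 for ATF3 (4.38e-07), -0.96 for IER3 (8.67e-05), -0.86 for FOSB (0.0393) and -0.80 for JUND (0.0165). The FOSB and JUND calls were lost when single DTC or DTEC libraries were left out, as given with their values above.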

How the results depend on the processing

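Across 15 alternatives per comparison the 40 member values gave 600 recomputed results: 543 kept direction and side of the threshold, 18 kept the direction but lost the call, 19 kept it and gained a call, and 20 turned sign, of which 1 also lost a call and 1 gained one. FOS, FOSB, FOSL1, JUN, JUND and ATF3 in DTC, FOSL1, JUN, ATF3, EGR1 and IER3 in DTEC, FOS, FOSL1, ATF3, EGR1 and IER3 in DTEC against DTC, and FOSL1 in KO kept their calls in all 15. The cause of the changes was not tested.

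The number of genes called in KO was 738, and 1147 with no filter, 1114 with DESeq2, 2656 with the compared libraries alone and 321 to 426 when 1 library was left out, which leaves fewer samples. Signs turned as follows. In DTC, FOSL2 was 0.023 with total counts alone; EGR1 was -0.0061 with no filter, -0.050 with the replicate block, -0.034 with the block and GC correction and -0.67 to 0.38 leaving out libraries; IER3 was -0.046 to 0.26 leaving out libraries. In DTEC, TDP1 was -0.048 with the GC correction, -0.048 with the block as well and -0.00997 to 0.085 leaving out libraries. In DTEC against DTC, FOSL2 was -0.049 and JUN -0.12 with total counts alone, and JUN was -0.093 to 0.14 leaving out libraries. In KO, JUN was -0.061 with the GC correction, -0.043 with the block as well and -0.14 to 0.16 leaving out libraries. ATF3 in KO was -0.24 to 0.038 and IER3 -0.11 to 0.029 leaving out libraries, and IER3 was 0.019 with total counts alone.

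Without length scaling the shares in untreated WT, DTC, DTEC and KO were 31.2, 5.95, 13.7 and 18.8% for FOSL1, 37.7, 47.6, 46.7 and 44.96% for FOSL2, 0.212, 0.816, 0.401 and 0.273% for FOSB, 4.50, 13.4, 8.20 and 6.55% for JUNB and 4.02, 15.1, 7.99 and 5.80% for JUND. JUN was at 18.4% in untreated WT, 15.8% in DTC and 19.1% in KO, and FOS at 4.01% in untreated WT.

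With the replicate block 11775, 9255, 9732 and 887 genes were called in DTC, DTEC, DTEC against DTC and KO, against 11520, 8955, 9480 and 738. Deviations of same-numbered libraries correlated at 0.06 to 0.18, 0.002 to 0.10, -0.01 to 0.14 and 0.04 to 0.06; 4, 3, 4 and 6 of 6 libraries correlated best with their own number. The block changed 1 member's call, FOS in DTEC (adjusted p = 0.049).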
